A study of Mus musculus with 19 samples.

Results

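The comparison of dusk with morning in mouse spinal cord cholinergic neurons set the 3 libraries taken at Zeitgeber time 12 (ZT12), when the lights went off, against the 3 taken at ZT4, 4 h after they came on. The libraries were chosen by their labelled collection time alone, and the 6 are part of 19 samples in the series, of which 18 are immunoprecipitates from 6 times of day and 1 is a pooled input. All 6 came from 10-wk-old male WT mice on a C57BL/6J background, kept in 12 h of light and 12 h of dark, that carried ChAT-Cre and RiboTag fx/+. ChAT-Cre switches on an HA tag on a ribosomal protein wherever choline acetyltransferase is expressed, and the mRNA that came down with an HA antibody was sequenced. Each immunoprecipitate was made from 1 spinal cord. The driver acts in every cholinergic cell of the cord, so motor neurons, visceral neurons and cholinergic interneurons were measured together. The values are mRNA that came down with the HA antibody and not total mRNA. Markers of other cell types were also present in them, as given below. In such bulk samples fewer cells of a type and less RNA per cell cannot be told apart.

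The mammalian clock is a feedback loop. CLOCK and its partner BMAL1, encoded by Arntl, bind E-box sequences and switch on the Period and Cryptochrome genes, whose proteins return to the nucleus and hold CLOCK and BMAL1 in check. A second loop of REV-ERB repressors and ROR activators acts on Arntl, and a further layer, the PAR bZIP factors DBP, TEF and HLF with their opponent NFIL3, passes the rhythm on through D-box sequences. In peripheral tissues of nocturnal mice, glucocorticoids climb toward dusk and reach some of the same genes through glucocorticoid response elements.

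Library depth ranged from 6651452 to 22406844 expected counts, the shallowest and the deepest both at ZT4, and Spearman's correlation of log2 CPM between any 2 of the 6 libraries was 0.975 to 0.985. The cholinergic label was borne out by its markers: Chat, Slc18a3, Slc5a7, Ache, Isl1, Mnx1 and Prph were each above the input in all 6 libraries, and their summed level was 4260 to 4690 CPM at ZT4 and 4702 to 4904 CPM at ZT12 against 557 CPM in the input. Prph made up most of this sum, with means of 3060 CPM at ZT4 and 3102 CPM at ZT12. Chat had means of 25.5 and 36.3 CPM against 15.7 CPM in the input. Markers of 8 other cell types were all below the input, and P2ry12 of microglia and Slc17a7 and Slc17a8 of excitatory neurons had 0 counts in some libraries. Those of oligodendrocytes summed to 1540 to 1876 CPM at ZT4 and 1706 to 2071 CPM at ZT12 (26373 CPM in the input). On the first principal component of all 18 immunoprecipitates, which held 52.8% of the variance, ZT4 libraries lay at 4.32 to 19.9 and ZT12 libraries at -12.4 to 8.33, so the groups overlapped.

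Of 15572 genes tested across the whole table with edgeR's quasi-likelihood test, 0 passed an adjusted p of 0.05, and the lowest adjusted p was 0.232. Accordingly, differences below are given as higher or lower with their values, and none is a call. Without adjustment, 1432 genes (9.2%) had a p under 0.05, with 789 (5.07%) higher and 643 (4.13%) lower at ZT12. In 1201 genes (7.71%) every ZT12 library was above every ZT4 library, and in 1088 (6.99%) every one was below. DESeq2's Wald test called 23 genes and edgeR fitted to the 6 libraries alone called 7. With 3 libraries against 3, a two-sided exact permutation test of 1 gene cannot give a p below 0.1.

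To place the sequences beside the measurements, the 250 bases before the RefSeq start (build GRCm38.p6) were searched on both strands for 4 motifs. The E-box CACGTG, the site of CLOCK and BMAL1, was found in 6.02% of 32851 promoters. The D-box, searched as TTATGTAA or TTACGTAA, was found in 0.931%. These shares are per promoter, and a gene with several starts has several promoters. A listed gene is counted if any of its promoters held the motif, so the counts and the shares are not on the same basis. Among the clock repressors, Per1, Cry1 and Ciart held an E-box and Per3 held D-boxes, out of 5 genes with a promoter entry. Of the other clock-controlled genes, Tspan4, Lonrf3 and Coq10b held an E-box, and Coq10b also a D-box, out of 4 with an entry. Of the output factors, Tef and Bhlhe41 held an E-box, while Dbp, the clock gene of lowest p, held neither motif. The 3 activators and the 4 REV-ERB and ROR genes with an entry held neither motif. Among the genes with an E-box, Cry1, Lonrf3 and Bhlhe41 had overlapping ZT4 and ZT12 libraries. Coq10b and Tef had every ZT12 library above every ZT4 library, and their promoters are not shown. A match is a run of letters and not a measured binding site. The 4 promoters shown belong to genes whose ZT12 libraries were all above their ZT4 libraries, with the motifs in capitals, E-boxes in Per1, Ciart and Tspan4 and D-boxes in Per3. They lie at chr11:69098699-69098947 on the plus strand (Per1), chr4:151044708-151044915 on the minus strand (Per3), chr3:95882258-95882478 on the minus strand (Ciart) and chr7:141476130-141476379 on the plus strand (Tspan4), each before 1 RefSeq start and without the bases next to it that another annotated transcript holds. The annotated spans of Per1 and Tspan4 begin farther upstream, so their windows lie inside the gene.
Per1: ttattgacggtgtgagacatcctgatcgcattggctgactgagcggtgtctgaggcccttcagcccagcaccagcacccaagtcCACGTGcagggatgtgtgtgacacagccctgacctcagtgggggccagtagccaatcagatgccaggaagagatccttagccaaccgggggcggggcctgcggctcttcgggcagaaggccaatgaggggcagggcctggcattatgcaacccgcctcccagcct
Per3: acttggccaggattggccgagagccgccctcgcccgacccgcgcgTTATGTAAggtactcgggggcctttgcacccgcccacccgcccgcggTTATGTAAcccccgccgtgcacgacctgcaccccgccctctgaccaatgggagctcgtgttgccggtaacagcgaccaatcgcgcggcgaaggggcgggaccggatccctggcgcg
Ciart: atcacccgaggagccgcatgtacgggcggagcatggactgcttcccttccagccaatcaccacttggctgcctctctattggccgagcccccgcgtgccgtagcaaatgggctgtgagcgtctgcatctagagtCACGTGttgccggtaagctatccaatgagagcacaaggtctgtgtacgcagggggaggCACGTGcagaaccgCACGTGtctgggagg
Tspan4: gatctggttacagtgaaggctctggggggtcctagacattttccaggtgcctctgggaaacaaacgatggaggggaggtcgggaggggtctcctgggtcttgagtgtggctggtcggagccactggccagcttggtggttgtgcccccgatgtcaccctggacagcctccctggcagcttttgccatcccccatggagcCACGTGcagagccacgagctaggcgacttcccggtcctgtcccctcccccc
The Per1 E-box begins 166 bases before the start, the 3 Ciart E-boxes 116, 58 and 44 bases before it, and the Tspan4 E-box 51 bases before it. The 2 Per3 D-boxes begin 205 and 158 bases before the start. For Tspan4, no GENCODE transcript held the bases that follow RefSeq's start.

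The Period genes were all higher at dusk. Per1, Per2 and Per3 encode the proteins that carry the negative arm of the loop, and in each of them all 3 ZT12 libraries exceeded all 3 ZT4 libraries, by 1.56-fold, 2.1-fold and 2.12-fold in the group means. Of the 6 clock repressors, 4 were higher at an unadjusted p under 0.05 and 0 lower, beside 5.07% and 4.13% of all genes, and the same 4 did not overlap, beside 7.71% of all genes that did so in this direction. The median log2 fold change of the 6 was 0.59, beside -0.00 for all genes tested.

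Per1 (chr11:69095108-69109965) was measured at 18.1, 16.5 and 22.5 CPM at ZT4 and at 26.4, 28.1 and 34.5 CPM at ZT12. The lowest library at dusk was thus above the highest in the morning, with a log2 fold change of 0.66 ± 0.16 (SE; edgeR adjusted p = 0.384, unadjusted p = 0.000665). Per2 (chr1:91415977-91459351) was the least abundant of the group, at 1.35, 2.25 and 2.05 CPM at ZT4 and 2.80, 4.17 and 4.89 CPM at ZT12. Its log2 fold change was 1.08 ± 0.33 (SE; edgeR adjusted p = 0.429). Per3 (chr4:150997018-151044707) stood at 8.66, 4.19 and 2.52 CPM at ZT4 and at 11.4, 9.07 and 12.1 CPM at ZT12. The morning libraries of Per3 were widely spread, and the highest of them came close to the lowest at dusk, with a log2 fold change of 1.04 ± 0.31 (SE; edgeR adjusted p = 0.407).

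Ciart, which encodes the repressor CHRONO, was at 8.46, 11.0 and 6.94 CPM at ZT4 and at 12.6, 13.0 and 12.9 CPM at ZT12. Its dusk libraries were nearly equal, and its log2 fold change was 0.52 ± 0.18 (SE; edgeR adjusted p = 0.478). The Cryptochromes did not follow the Period genes. Cry2, the most abundant repressor gene here, was at 111 ± 9.75 CPM at ZT4 and 121 ± 8.42 CPM at ZT12 (SD, n = 3), and Cry1 at 3.66 ± 1.27 and 3.05 ± 1.11 CPM (SD, n = 3). The libraries of both genes overlapped, with log2 fold changes of 0.13 ± 0.09 and -0.27 ± 0.35 (SE).

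**Figure D1:**
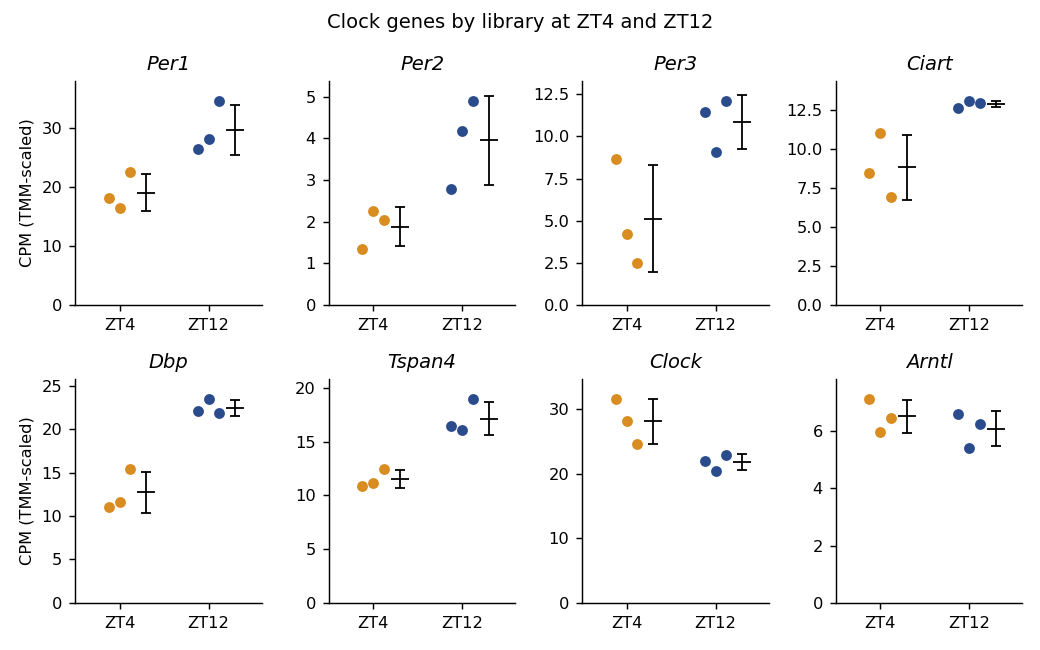
Level of 8 clock genes in CPM scaled by TMM (y axis, from 0) in the 3 ZT4 libraries (orange) and 3 ZT12 libraries (blue). Each point is 1 library, and the bar beside it is the mean ± SD. The groups do not overlap in Per1, Per2, Per3, Ciart, Dbp and Tspan4, which are higher at ZT12, or in Clock, which is lower, and they overlap in Arntl.

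The activators were not higher at dusk. Clock was lower at dusk, at 31.6, 28.2 and 24.6 CPM at ZT4 and 21.9, 20.4 and 22.9 CPM at ZT12. Every dusk library lay below every morning library, and the log2 fold change was -0.38 ± 0.15 (SE; edgeR adjusted p = 0.513). Arntl was at 6.51 ± 0.584 CPM at ZT4 and 6.09 ± 0.608 CPM at ZT12, and Npas2, a relative of Clock, was near 1 CPM at both times, at 0.834, 0.750 and 1.42 and then 0.593, 0.834 and 1.24 CPM. Of the 3 activator genes, 1 was lower and 0 higher at an unadjusted p under 0.05, beside 4.13% and 5.07% of all genes.

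In the stabilising loop, Nr1d1, which encodes REV-ERB alpha, was at 37.9, 28.1 and 41.3 CPM at ZT4 and at 40.1, 43.7 and 46.9 CPM at ZT12. These groups overlapped, with a log2 fold change of 0.30 ± 0.19 (SE). Nr1d2, Rora and Rorb had log2 fold changes of -0.04, -0.18 and 0.27 and overlapped.

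Dbp, an output factor of the PAR bZIP family that binds D-boxes (chr7:45705100-45710203), had the lowest p of all clock genes. It was at 11.1, 11.6 and 15.4 CPM at ZT4 and at 22.0, 23.5 and 21.8 CPM at ZT12. The dusk libraries lay within a narrow band well above the morning libraries, 1.76-fold in the means, with a log2 fold change of 0.84 ± 0.17 (SE; edgeR adjusted p = 0.232, unadjusted p = 0.00011). DESeq2's Wald test gave Dbp an adjusted p of 0.0119, so this gene passed in that test and not in edgeR's. Tef, its relative, was at 115, 124 and 126 CPM at ZT4 and 154, 131 and 137 CPM at ZT12, which did not overlap, but its log2 fold change was small at 0.21 ± 0.11 (SE; edgeR adjusted p = 0.58). Hlf, Nfil3, Bhlhe40 and Bhlhe41 overlapped, with log2 fold changes of -0.13, 0.02, 0.05 and -0.20. Thus 1 of 6 output factors was higher at an unadjusted p under 0.05, beside 5.07% of all genes. In 2 every ZT12 library was above every ZT4 library, beside 7.71% of all genes, and the median of the list was 0.03.

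Among other genes known as clock-controlled, Tspan4, a tetraspanin, was at 10.9, 11.2 and 12.5 CPM at ZT4 and 16.4, 16.1 and 19.0 CPM at ZT12. The groups were clearly apart, with a log2 fold change of 0.59 ± 0.19 (SE; edgeR adjusted p = 0.454). Usp2, a ubiquitin protease, was at 8.85, 5.69 and 7.41 CPM and then 11.3, 8.65 and 13.1 CPM. One dusk library of Usp2 fell just below the highest morning library, and the log2 fold change was 0.61 ± 0.24 (SE; edgeR adjusted p = 0.511). Coq10b did not overlap (log2 fold change 0.19), while Lonrf3 (0.68) and Wee1 (-0.08), a kinase that restrains cell division, did. Of these 5 genes, 2 were higher and 0 lower, beside 5.07% and 4.13% of all genes, at an unadjusted p under 0.05. None of the 8 kinase and ubiquitin ligase genes that set the stability of clock proteins reached it, and their median log2 fold change was -0.02.

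The 4 other collection times place these values, without a test of rhythm. Per1 had its lowest mean at ZT4, 19.1 CPM, beside 26.1 CPM at lights on (ZT0), 27.9 CPM in the afternoon (ZT8), 29.7 CPM at dusk, and 29.0 and 27.7 CPM in the dark (ZT16 and ZT20). Per2 had the same low point, at 1.88 CPM at ZT4 against 3.05 to 4.76 CPM at the other times. Dbp instead was set apart by its dusk value, at 22.4 CPM on average, with 10.3, 12.7 and 15.6 CPM at the 3 earlier times and 15.1 and 12.5 CPM in the dark. Per3 and Ciart were also highest at ZT12, at 10.9 ± 1.58 and 12.9 ± 0.214 CPM (SD, n = 3). Per3 at ZT16 (9.81 ± 1.74 CPM) and Ciart at ZT8 (11.7 ± 2.19 CPM) did not differ from these beyond their spread. Arntl had means of 9.18 ± 0.74 CPM at lights on and 5.58 ± 0.937 CPM at ZT8 (SD, n = 3), its highest and its lowest, so that ZT4 and ZT12 fell on either side of its low point. Against ZT0, which shares the ZT12 libraries with the comparison here, Dbp passed edgeR's test with a log2 fold change of 1.12 ± 0.17 (SE; adjusted p = 0.0162). Hba-a1, described below, also passed it (1.35 ± 0.23, SE; edgeR adjusted p = 0.0255). Per1, Per2 and Per3 had log2 fold changes of 0.19 ± 0.16, -0.27 ± 0.31 and 1.12 ± 0.30 (SE; edgeR adjusted p = 0.771, 0.840 and 0.577).

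**Figure D2:**
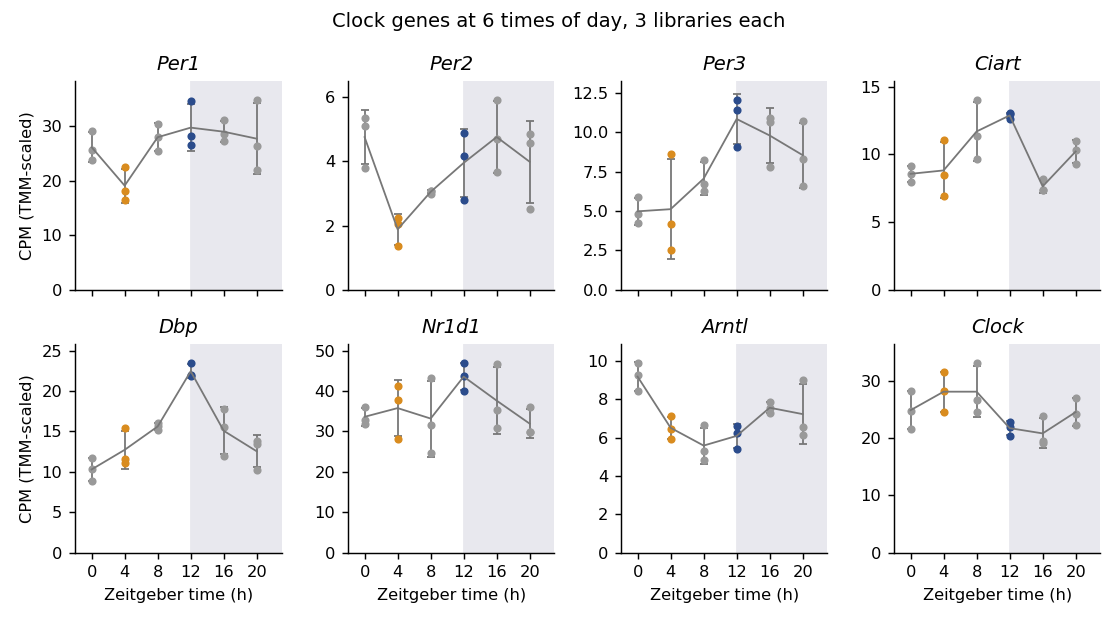
Level of 8 clock genes in CPM scaled by TMM (y axis, from 0) against Zeitgeber time in h (x axis), with 3 libraries at each time, ZT4 in orange, ZT12 in blue and other times in grey. Lines join the means, bars are SD, and shading marks the dark period. Per1 and Per2 have their lowest mean at ZT4, and Per3, Ciart, Dbp and Nr1d1 their highest at ZT12.

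Genes that glucocorticoids induce in many tissues gave a divided picture. Of 14 such genes, 3 were higher and 0 lower at an unadjusted p under 0.05, beside 5.07% and 4.13% of all genes. In 4 every ZT12 library was above every ZT4 library, beside 7.71% of all genes, and the median log2 fold change was 0.14. Sgk1, a kinase that acts on ion channels, was at 6.67, 7.67 and 10.9 CPM at ZT4 and 15.3, 16.6 and 14.9 CPM at ZT12. Its dusk libraries were about equal and all above the morning, with a log2 fold change of 0.93 ± 0.26 (SE; edgeR adjusted p = 0.385). Zbtb16, which encodes the transcription factor PLZF, was at 13.0, 11.5 and 12.6 CPM and then 17.3, 22.2 and 15.3 CPM. Its groups did not overlap, and the log2 fold change was 0.56 ± 0.16 (SE; edgeR adjusted p = 0.385). Fkbp5 and Tsc22d3, both standard targets of the glucocorticoid receptor, had log2 fold changes of 0.13 and -0.15 and overlapped.

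Dusp1, a phosphatase that switches off MAP kinases and belongs both to this list and to the immediate early genes, was at 11.2, 7.94 and 12.6 CPM at ZT4 and 19.2, 16.6 and 21.7 CPM at ZT12. The groups were apart, with a log2 fold change of 0.89 ± 0.27 (SE; edgeR adjusted p = 0.436). Immediate early genes are induced by neurons and other cells within minutes of a stimulus. Of 13 tested, 3 were higher and 0 lower at an unadjusted p under 0.05, beside 5.07% and 4.13% of all genes. In 11 the log2 fold change was above 0, as in 7741 of the 15572 genes tested, with a list median of 0.26. Jun was at 123, 97.0 and 153 CPM and then at 163, 160 and 169 CPM, without overlap. Egr1, at 10.7 ± 2.32 and 14.2 ± 1.57 CPM (SD, n = 3), overlapped. Across the day Dusp1 was lowest at ZT4 (10.6 CPM) and highest at ZT16 (23.6 CPM), and Sgk1 stood at 15.5 CPM at ZT8 and 15.6 CPM at ZT12 against 8.41 to 10.9 CPM at the other times.

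The promoters of Sgk1 (chr10:21993640-21993889, plus strand) and Dusp1 (chr17:26508520-26508722, minus strand) are shown because they hold motifs that few promoters hold. The Sgk1 window also lies inside the gene's annotated span. The glucocorticoid response element, read as AGAACA and TGTTCT with any 3 bases between them, was found in 3 of 32851 promoters (0.00913%), and Sgk1 was the only one of the 13 glucocorticoid-induced genes with an entry to hold it. The cAMP response element TGACGTCA was found in 1.55% of promoters. In the same lists as Dusp1, Errfi1, whose groups overlapped, and Btg2, whose groups did not, also held it. An E-box was also found in Fkbp5, whose groups overlapped, and in Egr2, which was not tested. Capitals mark the glucocorticoid response element, 189 bases before the start, and an E-box in Sgk1, and a cAMP response element, 143 bases before the start, and an E-box in Dusp1.
Sgk1: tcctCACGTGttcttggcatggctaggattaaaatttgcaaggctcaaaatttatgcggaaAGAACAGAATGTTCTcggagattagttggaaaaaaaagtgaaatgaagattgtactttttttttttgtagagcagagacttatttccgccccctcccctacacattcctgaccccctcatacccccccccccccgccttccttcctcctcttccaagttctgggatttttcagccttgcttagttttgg
Dusp1: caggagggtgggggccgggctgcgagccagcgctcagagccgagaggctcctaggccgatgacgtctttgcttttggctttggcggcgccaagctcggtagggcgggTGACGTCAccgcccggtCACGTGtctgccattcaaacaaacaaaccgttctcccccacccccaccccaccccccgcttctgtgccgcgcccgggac

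Body temperature is another daily signal that cells read. Rbm3, a cold-inducible RNA-binding protein gene, was at 72.6, 59.7 and 47.3 CPM at ZT4 and 89.6, 80.2 and 70.6 CPM at ZT12. Only the lowest dusk library dipped below the highest morning library, and the log2 fold change was 0.41 ± 0.17 (SE; edgeR adjusted p = 0.515). Cirbp, its relative, was at 93.9 ± 5.13 and 110 ± 22.2 CPM (SD, n = 3) and overlapped. Of 14 heat-shock genes, 12 had a log2 fold change below 0, as did 7824 of the 15572 genes tested, with a list median of -0.12. At an unadjusted p under 0.05, 1 was lower and 1 higher, beside 4.13% and 5.07% of all genes. The lower one was Chordc1, a partner of HSP90, at 91.4, 113 and 91.1 CPM at ZT4 and 62.4, 67.8 and 56.4 CPM at ZT12. The groups were well apart, with a log2 fold change of -0.67 ± 0.17 (SE; edgeR adjusted p = 0.384). The higher one was Hspa8, the constitutive HSC70 chaperone, at 4131, 3678 and 4155 CPM and then 4190, 5469 and 4655 CPM.

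Of 68 splicing factor genes, 7 were lower and 3 higher at an unadjusted p under 0.05, beside 4.13% and 5.07% of all genes, and 44 had a log2 fold change below 0, with a median of -0.08 that was -0.0164 without ZT12 replicate 3. Srsf5, an SR protein that promotes exon inclusion, led the list, at 139, 153 and 148 CPM at ZT4 and 92.7, 87.3 and 85.8 CPM at ZT12. The 2 groups were tight and far apart, with a log2 fold change of -0.72 ± 0.15 (SE; edgeR adjusted p = 0.232). It passed DESeq2's Wald test (adjusted p = 0.00679) and edgeR fitted to the 6 libraries alone (adjusted p = 0.0139). Srsf10, Hnrnph1 and Srsf1, also splicing regulators, had log2 fold changes of -0.47, -0.34 and -0.33, and of these only Srsf1 did not overlap. Srsf5 was lowest at ZT16 (69.7 ± 11.2 CPM; SD, n = 3) and highest at ZT4 (146 ± 7.05 CPM).

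The large housekeeping families had medians between -0.20 and 0.04. Of 85 cytosolic ribosomal protein genes, 2 were higher and 1 lower at an unadjusted p under 0.05, beside 5.07% and 4.13% of all genes. In 60 the log2 fold change was below 0, as in 7824 of the 15572 genes tested, with a family median of -0.14. Rpl3 was the exception of lowest p, at 323, 297 and 322 CPM at ZT4 and 380, 400 and 362 CPM at ZT12 (log2 fold change 0.28 ± 0.08, SE; edgeR adjusted p = 0.385). Of 82 oxidative phosphorylation genes, 5 were higher and 2 lower, beside the same 5.07% and 4.13% of all genes. In 60 of the 82 the log2 fold change was below 0, with a median of -0.20. Subunits of complex I, the NADH dehydrogenase, were found in both directions. Ndufb2 was at 44.8, 32.4 and 41.5 CPM and then 59.8, 61.7 and 56.4 CPM (log2 fold change 0.59 ± 0.15, SE), and Ndufa1 at 109, 139 and 134 CPM and then 106, 86.3 and 70.9 CPM (-0.54 ± 0.23, SE). Of 78 mitochondrial ribosomal protein genes, 2 were higher and 2 lower, beside the same 5.07% and 4.13% of all genes. In 60 of the 78 the log2 fold change was below 0, with a median of -0.11, Mrpl36 having the lowest p (log2 fold change -0.56 ± 0.15, SE). Of 37 proteasome genes, 3 were higher and 0 lower, beside 5.07% and 4.13% of all genes, with a median of 0.04: Psmd6 (log2 fold change 0.44), Psmd3 (0.24) and Psmc4 (0.22). The mitochondrial ribosomal and oxidative phosphorylation medians stayed below 0 whichever of the 6 libraries was left out. The family medians varied in size with the library left out. Without ZT12 replicate 3 they were 0.01 for the cytosolic ribosomal, -0.03 for the mitochondrial ribosomal and -0.05 for the oxidative phosphorylation genes, and without ZT12 replicate 1 they were -0.22, -0.14 and -0.32, with -0.08 for the proteasome genes.

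Among 13 tubulin and neurofilament genes, the cytoskeleton of axons, 5 were higher and 0 lower at an unadjusted p under 0.05, beside 5.07% and 4.13% of all genes, with a median log2 fold change of 0.14 that was 0.22 without ZT4 replicate 3. The other 8 did not reach this p, and Tuba1b and Ina were at -0.06 and -0.03. Tubb4a was at 1102, 997 and 1282 CPM at ZT4 and 1294, 1640 and 1608 CPM at ZT12, the groups just apart, with a log2 fold change of 0.43 ± 0.15 (SE; edgeR adjusted p = 0.486). Nefm, the medium neurofilament chain, was at 10192 ± 891 and 12289 ± 1502 CPM (SD, n = 3) and overlapped. Tubulin genes are close in sequence, so how reads were shared among them affects each value.

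**Figure D3:**
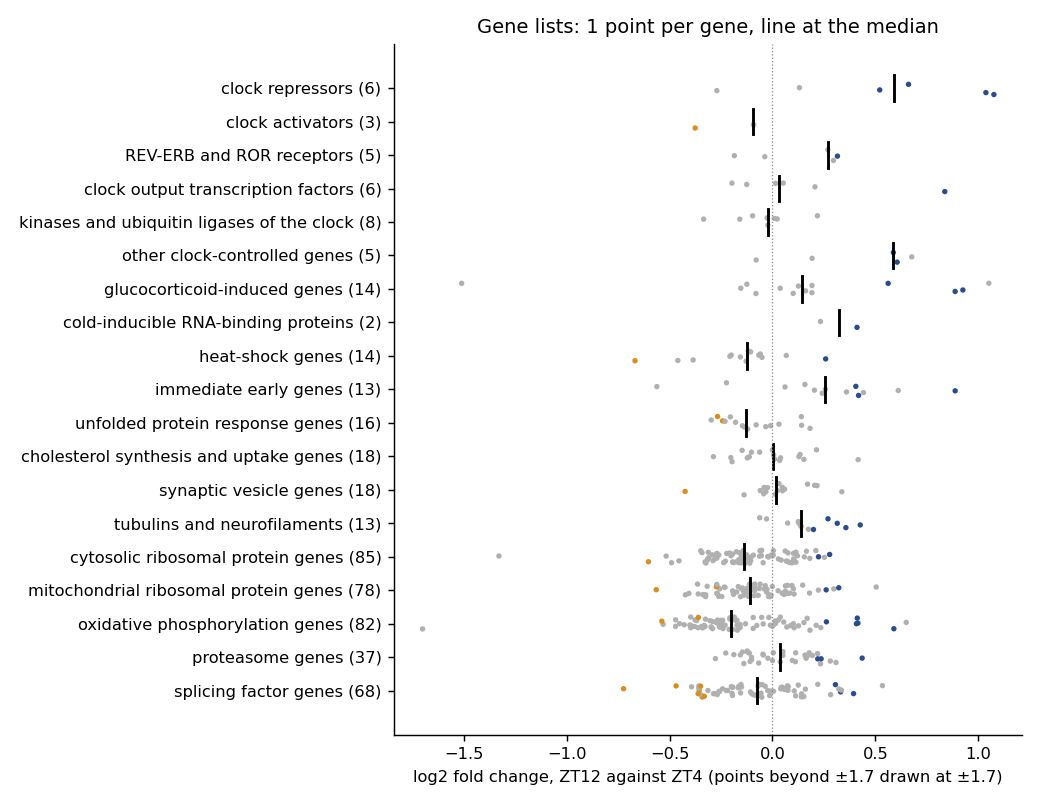
Log2 fold change at ZT12 against ZT4 (x axis) for the tested genes of 19 lists (rows, number of genes in brackets), 1 point per gene and a black line at the median of each list. Blue and orange points are higher and lower at an unadjusted p under 0.05. The clock repressors and the other clock-controlled genes have the highest medians (both 0.59), and the large families centre between -0.20 and 0.04.

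Beyond the lists, the 10 genes of lowest p in each direction were taken, leaving out predicted genes with no proper symbol. On the side of lower levels at dusk, Slc5a3, a transporter that brings myo-inositol into cells, was at 36.4, 36.3 and 32.8 CPM at ZT4 and 23.5, 22.9 and 19.3 CPM at ZT12. It had the lowest p of all genes, with a log2 fold change of -0.69 ± 0.14 (SE; edgeR adjusted p = 0.232). Hexim1, an inhibitor of the elongation factor P-TEFb, was at 103, 105 and 110 CPM and then 80.1, 75.7 and 79.2 CPM, a modest difference with tight groups (log2 fold change -0.44). Rnf182, a ubiquitin ligase, and Mkx, a homeobox factor, had log2 fold changes of -0.94 and -0.82. Marcks, a substrate of protein kinase C at the membrane, was at 26.4 ± 4.09 and 16.4 ± 2.33 CPM (SD, n = 3). Sox2, a factor of glia and stem cells, Adam33, a metalloprotease, and Spry1, an inhibitor of growth factor signalling, were all below 10 CPM, with log2 fold changes of -1.64, -1.50 and -1.04. Srsf5 and Chordc1 complete the 10.

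On the side of higher levels, Gnl2, a nucleolar GTPase, was at 37.8, 30.7 and 31.4 CPM at ZT4 and 48.6, 63.5 and 50.1 CPM at ZT12 (log2 fold change 0.69 ± 0.14, SE; edgeR adjusted p = 0.232). Itga7, a laminin receptor, was at 28.7, 29.3 and 33.4 CPM and then 45.3, 49.3 and 53.7 CPM (log2 fold change 0.71), and Snrnp200, a helicase of the spliceosome, at 25.0, 25.4 and 21.8 CPM and then 35.2, 43.1 and 46.0 CPM (0.78). In each of these the groups were apart. Lcn2, which binds iron-carrying siderophores, C1qtnf12, a secreted protein, Vim, an intermediate filament protein, and Agt, the precursor of angiotensin, were at 1.28 to 5.36 CPM at ZT4 and 5.08 to 13.7 CPM at ZT12, with log2 fold changes of 1.27, 1.35, 1.23 and 1.52. The pseudogene Alms1-ps1, whose reads could be shared with its parent gene, had 0 counts in all 3 ZT4 libraries and 2.46, 0.313 and 1.12 CPM at ZT12, at least 19.3-fold higher against a floor of 3 counts over the ZT4 group. Dbp and Hba-a1 complete the 10. Of the 23 genes that DESeq2 called, 16 higher and 7 lower, 15 are named here: these 20 without Alms1-ps1, Marcks, Sox2, Chordc1, Adam33 and Spry1, and with Hba-a2. The other 8, chosen after their values were seen, all have fitted log2 fold changes beyond 20 in size and 0 counts in 1 of the groups. Gm38666 and the clustered protocadherins Pcdha11, Pcdhga3, Pcdha2, Pcdhac1 and Pcdha1 were higher, with 92 to 312 counts at ZT12, and Pcdha5 and Pcdhgb7 were lower, with 59 and 41 counts at ZT4. Protocadherins of a cluster share exons, so how reads were divided among them affects each value. With edgeR on the 6 libraries alone, the 7 genes called, 6 higher and 1 lower, were Hba-a1, Hba-a2 and Srsf5 and, outside the lists and named after their values were seen, Gm20605, Cdc37, Fth1 and Lmtk3.

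**Figure D4:**
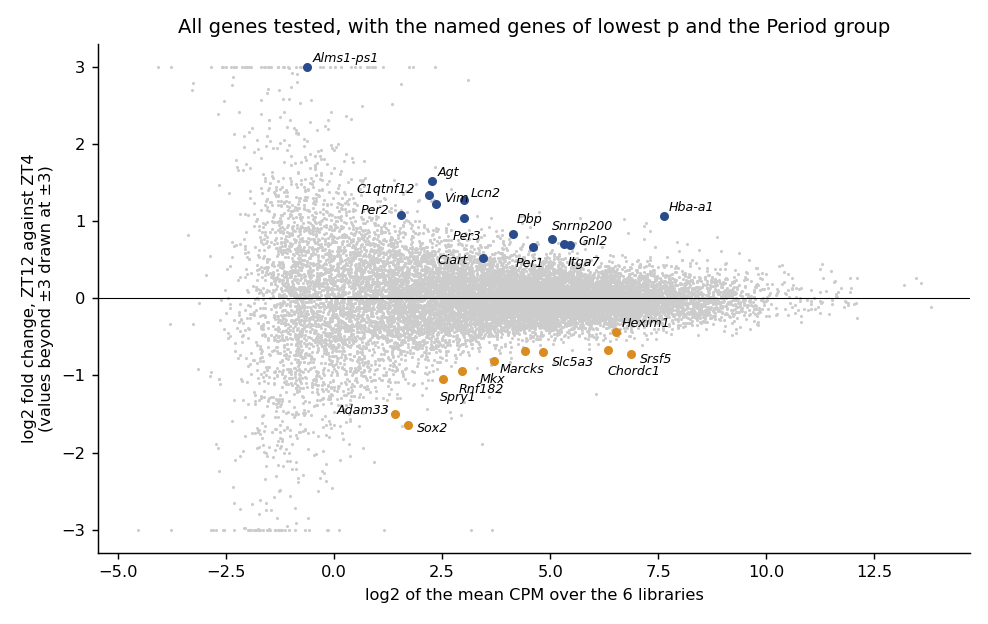
Log2 fold change at ZT12 against ZT4 (y axis, values beyond 3 drawn at 3) against log2 of the mean CPM of the 6 libraries (x axis) for the 15572 genes tested (grey). Blue and orange points are the 10 genes of lowest p in each direction, with Per1, Per2, Per3 and Ciart added. Per1, Per2, Per3 and Ciart all lie above 0, at log2 fold changes from 0.52 to 1.08.

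Haemoglobin mRNA, the product of red blood cells, was also higher at dusk. Hba-a1 was at 96.4, 124 and 162 CPM at ZT4 and 271, 289 and 237 CPM at ZT12, with a log2 fold change of 1.06 ± 0.23 (SE; edgeR adjusted p = 0.232), and it was between 104 and 128 CPM on average at all 5 other times. Hba-a2, Hbb-bs and Hbb-bt had log2 fold changes of 0.87, 0.77 and 0.66. None of the 4 overlapped, beside 7.71% of all genes that were apart in this direction. Hba-a1 and Hba-a2 are near-identical copies, so their separate values are uncertain. Hba-a1 and Hba-a2 passed DESeq2's test (adjusted p = 0.00569 and 0.0218) and edgeR on the 6 libraries alone (adjusted p = 0.0114 for both). The summed erythrocyte level was 288 to 411 CPM at ZT4 and 604 to 737 CPM at ZT12, against 2450 CPM in the input, so the immunoprecipitates held less than the whole cord.

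Among astrocyte markers, 2 of 6 were higher and 0 lower at an unadjusted p under 0.05, beside 5.07% and 4.13% of all genes. These were Gfap, a filament of these cells, and Aldh1l1, a folate enzyme, with log2 fold changes of 0.50 and 0.61. Aqp4 and Gja1 were at -0.17 and -0.31. The summed level of the 6 was 144 to 162 CPM at ZT4 and 168 to 193 CPM at ZT12, below 3567 CPM in the input, and Gfap and Slc1a2 made up most of it. In the list of lowest p, Agt, a textbook astrocyte gene, and Vim, found in glia and vessels, were higher, and Sox2, a factor of glia, was lower. Mbp, of myelin, was the 1 of 7 oligodendrocyte markers that was higher at an unadjusted p under 0.05 (log2 fold change 0.36), beside 5.07% of all genes. Of 4 endothelial markers, 1 was lower and 0 higher (Cldn5, of tight junctions, -0.86), beside 4.13% and 5.07% of all genes. Ly6c1 was at 1.87 CPM at ZT4 and 2.39 CPM at ZT12 by library totals. The sum of the 4 was 8.72 to 15.3 CPM at ZT4 and 8.40 to 9.87 CPM at ZT12. Of 4 inhibitory neuron markers, 1 was lower and 0 higher (Gad1, -0.27, overlapping), beside 4.13% and 5.07% of all genes. Slc32a1 was at 0.08. In 1 other of the 4, every ZT12 library was below every ZT4 library, beside 6.99% of all genes. Of 3 excitatory neuron markers, 1 was lower and 0 higher (Slc17a6, -0.30, overlapping), beside the same shares of all genes, with Slc17a8 at 0.73. Of the 7 cholinergic markers, 0 reached an unadjusted p under 0.05 in edgeR, beside 9.2% of all genes in either direction. In 3 every ZT12 library was above every ZT4 library, beside 7.71% of all genes. All 7 had a log2 fold change above 0, with a median of 0.24. The part of these shifts in the differences of other genes was not tested.

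**Figure D5:**
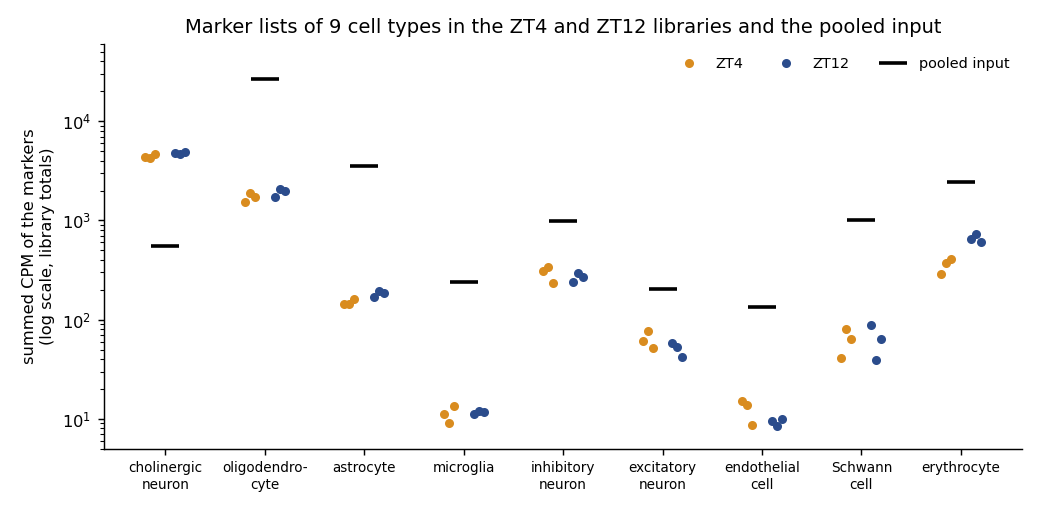
Summed level of the marker genes of 9 cell types in CPM by library total (y axis, log scale) in the 3 ZT4 libraries (orange), 3 ZT12 libraries (blue) and the pooled input (black bar). Cholinergic markers are above the input and all others below it, and the cholinergic, astrocyte and erythrocyte sums at ZT12 lie above those at ZT4.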

How the data were processed

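The mRNA of 18 immunoprecipitates and 1 pooled input was sequenced by the authors as 150-bp paired ends from an Illumina Stranded mRNA kit. Reads were aligned with STAR 2.7.5 to mm10 and summarised per gene with RSEM 1.3.0 and Ensembl 98 annotations, per the study's methods. The deposited values are expected counts. They were rounded to whole numbers and used for all tests. Library totals of the 6 libraries ranged from 6651452 to 22406844. All samples were handled on 1 day, and the replicates are separate animals.

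Genes were filtered with filterByExpr (15572 of 50559 kept) and fitted with edgeR 4.0.16, TMM scaling and quasi-likelihood dispersions over all 18 immunoprecipitates, ZT12 against ZT4, with Benjamini-Hochberg adjustment. CPM are TMM-scaled, marker sums use library totals. DESeq2 1.42.0, 3 other scalings, other filters, the 6 libraries alone, a replicate block and each library left out were alternatives. Up to 4 genes per list of lowest p under 0.05, every clock gene of the core lists, and the 10 of lowest p in each direction, predicted genes left out, are named, except for a result that is not reported here. Some others are named after their values were seen. Members and lists were chosen with earlier results of these data known. Promoters and their sequences are from RefSeq on GRCm38.p6, and 99.1% of tested genes matched a RefSeq symbol. Gene coordinates are from the annotation of GRCm38.p6.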

Additional observations from a re-analysis of the deposited data

How the results depend on the processing

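The count of genes past an adjusted p of 0.05, 0 in the fit reported, stayed at 0 under library totals, DESeq2 size factors and upper-quartile scaling, with a filter of at least 10 counts, with the replicate block, without each of the 6 libraries and without ZT8, 2 of whose libraries lie highest on the first principal component, at 42.6 and 29.7 (chosen after seeing the data). It was 233 with a filter of at least 1 count, 23 with DESeq2's Wald test and 7 with the 6 libraries alone. The wider filter tested 25601 genes and gave Per1 an adjusted p of 0.0147, Per3 0.0223, Dbp 0.00857, Sgk1 0.00991, Dusp1 0.00172 and Chordc1 0.000119, and it moved the genes lower at an unadjusted p under 0.05 to 993. The cause of these differences was not tested. DESeq2 gave 6827 of 20704 genes no adjusted p.

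Leaving out 1 library at a time gave 476 to 925 genes higher and 376 to 830 lower at an unadjusted p under 0.05. Without ZT4 replicate 2 there were 476 and 376, and without ZT12 replicate 3 there were 421 lower. List medians moved beyond their spread in 12 of 300 alternatives, all with a library left out, ranging over 0.0495 to 0.254 for glucocorticoid-induced genes, -0.0798 to 0.0989 for proteasome genes, -0.00385 to 0.135 for output factors, 0.31 to 0.59 for other clock-controlled genes, 0.27 to 0.39 for immediate early genes, -0.397 to -0.0395 for activators and 0.0524 to 0.31 for REV-ERB and ROR genes. Of 85 named genes, 78 kept their sign under every alternative run. Over all alternatives the log2 fold change was 0.55 to 0.78 for Per1, 0.86 to 1.28 for Per2, 0.77 to 1.62 for Per3 and 0.75 to 0.98 for Dbp. With a library left out, 7 genes with small values turned sign. Their ranges over all alternatives were -0.42 to 0.18 for Npas2, -0.19 to 0.0603 for Nr1d2, -0.29 to 0.11 for Hlf, -0.47 to 0.0620 for Cry1, -0.24 to 0.0339 for Wee1, -0.0822 to 0.18 for Nfil3 and -0.0349 to 0.12 for Bhlhe40.

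Same-numbered ZT4 and ZT12 libraries had correlations of their deviations of -0.38, 0.00 and -0.13, and differently numbered ones of -0.19 to 0.33. Each deviation is taken from the mean of 3 libraries, so these correlations depend on each other. They cannot settle whether the replicate numbers pair the libraries. With the replicate block 843 genes were higher and 624 lower at an unadjusted p under 0.05, 0 passed after adjustment, and Nfil3 was at -0.00295. Depth limits the weak genes, such as Per2 and Npas2, which lie below 5 CPM in each of the 6 libraries compared.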

Other observations

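Of 16 genes of the unfolded protein response, chaperones and enzymes of the endoplasmic reticulum, 2 were lower and 0 higher at an unadjusted p under 0.05, beside 4.13% and 5.07% of all genes. Their median log2 fold change was -0.13, and -0.18 to -0.04 with 1 library left out, the smallest size being without ZT4 replicate 3. Pdia6, a disulfide isomerase, was at 106, 101 and 105 CPM at ZT4 and 87.8, 94.7 and 77.4 CPM at ZT12, without overlap, and Canx, the lectin chaperone calnexin, was at 306 ± 39.3 and 259 ± 4.13 CPM (SD, n = 3) and overlapped.

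Of 18 synaptic vesicle genes, 1 was lower and 0 higher, beside 4.13% and 5.07% of all genes, with a median of 0.02. The lower one was Syt1, a calcium sensor of vesicle release, at 113, 134 and 121 CPM at ZT4 and 86.5, 95.2 and 92.2 CPM at ZT12, a log2 fold change of -0.42 ± 0.11 (SE; edgeR adjusted p = 0.384). Among 18 genes of cholesterol synthesis and uptake, 0 were higher and 0 lower at an unadjusted p under 0.05 by edgeR, beside 5.07% and 4.13% of all genes. Of these 18, 0 passed adjustment, and the median was 0.00.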
